A study of Mus musculus with 19 samples.

Results

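Neonatal-only regions are stretches of the mouse genome that carried a 5-hmC peak in both neonatal cardiomyocyte (CMC) samples and in none of the 6 samples of the other points. They were chosen by the peak positions themselves: the base pairs shared by the 2 Neonatal peak lists were joined into common regions, and an autosomal common region was kept if no peak of the 2 E14.5, 2 Adult and 2 TAC lists overlapped it by 1 bp or more. This gave 4421 neonatal-only regions among 65363 autosomal neonatal common regions (6.76%), out of 989991 autosomal peaks in the 8 lists. Since the rule used these positions, the number itself, the absence of other peaks and the genes that follow from it are a description and carry no test.

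The profiles were made by hMeDIP sequencing, in which sonicated DNA is precipitated with an antibody to 5-hmC, with 2 biological replicates at each point. CMCs of C57BL/6J mice came from E14.5 embryos (E14.5), from pups 1 to 2 days old (Neonatal) and from normal mice 2 months old (Adult). Those of the last point came from adult mice 1 week after transverse aortic constriction, a surgery that loads the left ventricle with pressure (TAC). The paper describes the mice of these points as male and names the strain in its account of the surgery. The preparations were enriched for CMCs by sedimentation or by removal of adherent cells and were not pure, and adult cells came from the left ventricle. The peak lists name positions only, so the depth behind a peak is unknown and a site without a peak may carry 5-hmC under the threshold of the peak caller.

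5-hmC is made from 5-methylcytosine by the TET dioxygenases, mostly at CpG dinucleotides, and is both a step towards demethylation and a lasting mark. In differentiated cells it is found chiefly along the bodies of transcribed genes and at distal enhancers, and is scarce at the TSSs of CpG islands. The days after birth are those in which mouse CMCs leave the cell cycle, turn from glucose and lactate to fatty acids as fuel, and build the membrane systems that move calcium in the adult cell.

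To show what such regions look like, the central 300 bases are given for the widest neonatal-only region of each of 4 classes of place and for the widest region in each of the 4 genes that hold most of them. The letters were read from the plus strand of the GRCm38 (mm10) reference, and capitals mark CpG dinucleotides, the site at which 5-hmC is mostly found.
Smad5 upstream of the TSS window, chr13:56702102-56702401: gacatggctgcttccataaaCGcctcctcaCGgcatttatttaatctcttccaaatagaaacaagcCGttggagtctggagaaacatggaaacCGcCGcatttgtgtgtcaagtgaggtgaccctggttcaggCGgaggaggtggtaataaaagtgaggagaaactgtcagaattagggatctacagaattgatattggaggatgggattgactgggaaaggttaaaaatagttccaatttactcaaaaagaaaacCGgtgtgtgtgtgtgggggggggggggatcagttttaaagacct
Pacsin3 coding exon window, chr2:91260380-91260679: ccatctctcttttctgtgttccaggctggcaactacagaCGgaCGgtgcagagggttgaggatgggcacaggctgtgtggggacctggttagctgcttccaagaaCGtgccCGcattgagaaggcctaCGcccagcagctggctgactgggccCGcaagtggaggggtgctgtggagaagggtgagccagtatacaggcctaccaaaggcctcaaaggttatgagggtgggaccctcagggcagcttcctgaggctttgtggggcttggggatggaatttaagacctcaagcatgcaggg
Acsl1 intron window, chr8:46493919-46494218: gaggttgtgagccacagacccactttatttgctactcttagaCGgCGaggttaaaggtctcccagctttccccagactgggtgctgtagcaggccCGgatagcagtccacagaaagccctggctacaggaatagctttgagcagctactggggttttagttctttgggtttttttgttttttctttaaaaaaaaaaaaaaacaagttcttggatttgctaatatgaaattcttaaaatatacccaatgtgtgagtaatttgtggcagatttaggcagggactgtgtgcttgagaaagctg
Twist2 intergenic window, chr1:91921487-91921786: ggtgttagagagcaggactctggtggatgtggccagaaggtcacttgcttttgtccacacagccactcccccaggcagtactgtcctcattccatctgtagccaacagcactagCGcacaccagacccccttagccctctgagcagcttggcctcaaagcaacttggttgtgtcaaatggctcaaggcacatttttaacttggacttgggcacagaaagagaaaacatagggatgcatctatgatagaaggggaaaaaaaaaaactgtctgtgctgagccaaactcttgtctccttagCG
Ryr2 intron window, chr13:11960637-11960936: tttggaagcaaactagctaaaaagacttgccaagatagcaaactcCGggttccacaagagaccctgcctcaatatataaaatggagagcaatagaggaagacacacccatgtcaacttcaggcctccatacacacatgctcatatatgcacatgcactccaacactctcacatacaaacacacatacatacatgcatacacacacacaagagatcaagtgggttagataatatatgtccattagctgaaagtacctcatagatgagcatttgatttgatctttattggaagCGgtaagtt
Slc8a1 intron window, chr17:81455081-81455380: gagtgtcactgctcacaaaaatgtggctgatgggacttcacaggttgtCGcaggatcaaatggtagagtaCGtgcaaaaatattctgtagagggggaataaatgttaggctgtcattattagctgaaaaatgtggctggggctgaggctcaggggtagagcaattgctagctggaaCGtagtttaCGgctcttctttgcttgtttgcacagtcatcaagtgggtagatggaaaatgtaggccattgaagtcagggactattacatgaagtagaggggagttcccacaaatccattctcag
Cdh13 intron window, chr8:118565366-118565665: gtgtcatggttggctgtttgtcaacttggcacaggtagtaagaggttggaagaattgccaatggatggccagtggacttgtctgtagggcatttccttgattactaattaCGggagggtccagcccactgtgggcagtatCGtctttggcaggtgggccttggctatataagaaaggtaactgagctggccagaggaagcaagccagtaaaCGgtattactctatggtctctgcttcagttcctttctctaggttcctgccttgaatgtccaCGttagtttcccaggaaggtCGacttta
Camk2d intron window, chr3:126760517-126760816: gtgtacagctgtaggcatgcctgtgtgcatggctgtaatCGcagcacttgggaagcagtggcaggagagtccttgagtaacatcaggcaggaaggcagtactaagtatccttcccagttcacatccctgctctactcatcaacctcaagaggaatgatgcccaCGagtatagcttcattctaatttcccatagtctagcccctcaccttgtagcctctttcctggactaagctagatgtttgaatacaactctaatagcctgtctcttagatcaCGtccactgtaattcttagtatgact

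The 8 windows held 2 to 7 CpGs each, and the window upstream of Smad5, which encodes a mediator of BMP signalling, held the most. The Acsl1 and Twist2 windows, from the widest intronic and the widest intergenic region, held 3 and 2 CpGs. The windows in Ryr2, Slc8a1, Cdh13 and Camk2d were all intronic and held 2, 4, 5 and 3. All 8 windows lay in regions with a peak of another point close by: the nearest was 1 bp away at Pacsin3, which encodes an adaptor of membrane trafficking, 110 bp at Smad5, 84 bp at Cdh13 and 1775 bp at Ryr2.

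The neonatal-only regions were short. Their median width was 461 bp, against 501 bp for all neonatal common regions, and together they covered 1884.8 kb. The 10th to 90th percentile of width ran from 214 to 501 bp. Only 23 regions reached 1 kb, compared with 7310 of all neonatal common regions, while 222 were under 100 bp. The share of common regions that were neonatal-only fell at each step of width, from 20.02% under 100 bp and 12.1% between 250 and 500 bp to 3.89% between 500 and 750 bp and 0.315% at 1 kb or more. A wide region offers more base pairs that a peak of another point can touch, but the part of this in the fall was not tested.

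**Figure D1:**
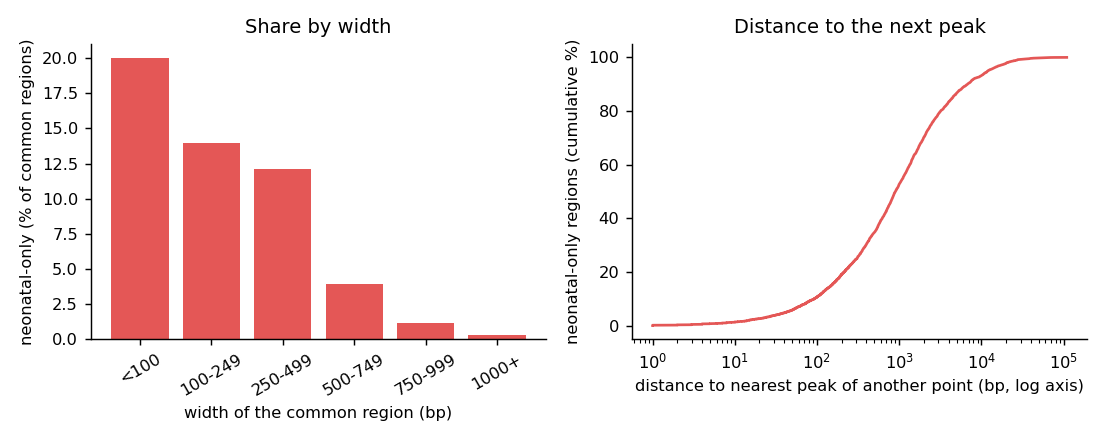
Left, bars give the percentage of autosomal neonatal common regions that were neonatal-only in each class of width in bp, falling from 20.02% to 0.315%. Right, the line gives the cumulative percentage of the 4421 neonatal-only regions by distance in bp (log axis) to the nearest peak of the 6 other lists, which is 1 kb or less for 52.7%.

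Both Neonatal samples gave their narrower peaks to these regions. The peaks beneath them had a median width of 501 bp in both replicates, against 631 and 716 bp beneath all neonatal common regions. In the deposited order of the lists, along which width falls, they stood at a median place of 63.8% and 65.7% of the way down, where the peaks of all common regions stood at 31.7% and 29.4%. What the authors sorted the lists by is not given in the sources used here. The peaks of both replicates had their centres a median of 98 bp apart at neonatal-only regions, and at 67.9% of them the shared part covered 80% or more of the narrower peak. At 248 regions (5.61%) the shared part was under 20% of the narrower peak. Over all neonatal common regions the centres lay 125 bp apart, 79.6% reached 80% and 2.01% stayed under 20%, so that the replicates covered one another less fully at neonatal-only regions.

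Most neonatal-only regions had 5-hmC of another point beside them. The nearest peak of the 6 other lists was a median of 0.902 kb away, 472 regions had one within 100 bp, 2328 (52.7%) within 1 kb and 4121 within 10 kb. How near such peaks lie to other sites of the genome was not measured. Just outside the rule, 677 common regions were dropped for an overlap of 50 bp or less and 1296 although under 50% of their length was covered, whereas the median dropped region was covered by 100%. E14.5 replicate 2 overlapped 65.2% of the common regions and was the only list to overlap 4522 of them. TAC replicate 2 overlapped 23.0% and was the only one at 330. TAC replicate 2 also stood apart from its partner, with 42.9% of its peaks overlapped by no list of another point, against 17.6% in TAC replicate 1, and without it there would be 4751 neonatal-only regions, 55.5% of them on gene bodies. The number rests more on other lists: it was 8943 without E14.5 replicate 2 and 6719 without E14.5 replicate 1, with 49.7% and 53.6% on gene bodies. With a single Neonatal list in place of both it was 23206 (48.4% on gene bodies) without replicate 1 and 27575 (46.4%) without replicate 2.

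By place, neonatal-only regions lay on introns and between genes. By the position of its centre, 2225 (50.3%) were intronic, 1856 (42.0%) intergenic, 133 (3.01%) on coding exons, 76 (1.72%) on untranslated exons, 70 (1.58%) at a TTS and 61 (1.38%) at a TSS, taken as 1 kb before to 100 bp after it. Gene bodies, that is introns and exons together, held 55.1% of them (95% Wilson interval 53.6 to 56.5%, counting error only). This was below the 60.2% of all neonatal common regions and above the 40.7% of the autosomal genome. The same rule applied to the other points gave 3567 E14.5-only, 5240 Adult-only and 2545 TAC-only regions, with 45.6%, 71.8% and 62.9% on gene bodies. The neonatal-only share thus stood between the E14.5-only and the Adult-only share. The E14.5, Neonatal and Adult sets kept this order with a peak of another point barred within 1 kb, where the neonatal-only share was 44.8% against 39.5% and 70.1%, and in the first 50% of each deposited list, where it was 65.6% against 50.1% and 76.9%.

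**Figure D2:**
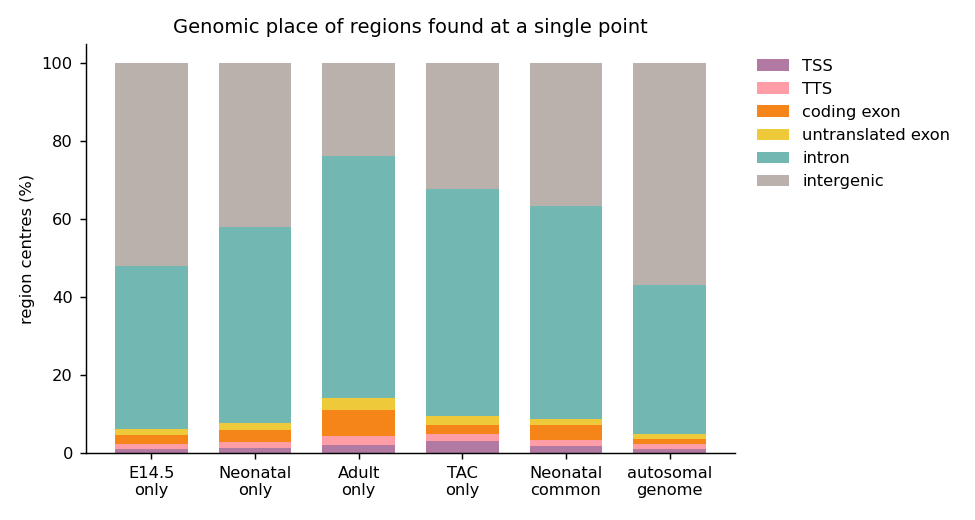
Stacked bars give the percentage of region centres in each genomic class for the regions of a single point, for all neonatal common regions and for the autosomal genome by base pair. Intergenic sequence takes 42.0% of neonatal-only regions, against 52.1% of E14.5-only and 23.6% of Adult-only regions.

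Distances to genes were long. The median neonatal-only region lay 36.7 kb from the nearest TSS of a protein-coding gene, against 32.6 kb for all neonatal common regions, 52.9 kb for E14.5-only and 22.6 kb for Adult-only regions. Within 1 kb of a TSS lay 2.13% of them, and 1193 regions (27.0%) lay over 100 kb from any. Every autosome held neonatal-only regions, from 1.39 per Mb on chromosome 14 to 2.34 per Mb on chromosome 11. As a share of the common regions of a chromosome they ranged from 5.16% on chromosome 5 to 8.47% on chromosome 3.

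Sequence was examined because the rule did not use it. Neonatal-only regions held 1.22 CpG per 100 bp, against 1.56 in all neonatal common regions, 1.46 in E14.5-only, 1.70 in Adult-only and 1.38 in TAC-only regions, and 0.851 in the autosomal genome. In the central 300 bases, 10 or more CpGs were found in 151 regions (3.42%), compared with 8.11% of all neonatal common regions and 7.65% of Adult-only regions. Of the neonatal common regions with 10 or more CpGs there, 2.85% were neonatal-only, against 8.0% of those with 1 to 3. Among common regions of 250 to 501 bp alone these shares were 5.20% and 10.7%. Width was not held constant there: 9.87% of the whole class were neonatal-only, against 12.1% of its regions under 500 bp. Soft-masked sequence, which is repeats and low-complexity DNA, made up 28.2% of the bases of neonatal-only regions, against 25.4% in all neonatal common regions, 25.5% in E14.5-only regions, 16.2% in Adult-only regions and 33.5% of the autosomal genome. The share of regions in which 50% or more of the central 300 bases were soft-masked was 23.89% for neonatal-only and 23.997% for all neonatal common regions.

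For a test over samples, each list was taken alone. Its private peaks, those that no list of another point overlapped, were described by 7 features. The rule used none of these directly, but mean width is bound to it, because a wide peak offers more base pairs to touch. From all to private peaks, mean width changed by -72.9 bp (TAC replicate 2) to -242 bp (Neonatal replicate 2). Private peaks numbered 27575 and 23206 in the Neonatal lists and held 1.07 and 1.06 CpG per 100 bp. The values were 1.25 and 1.15 in E14.5, 1.39 and 1.49 in Adult, and 1.36 and 0.846 in TAC. Both Neonatal values were thus below those of the other lists except TAC replicate 2. The Neonatal mean of 1.06 ± 0.00588 (SD, n = 2) was not separated from the 1.25 ± 0.230 (SD, n = 6) of the other lists (exact two-sided permutation test over the 28 choices of 2 lists, p = 0.321, adjusted p = 0.536 over the 7 features).

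The share of private peaks on gene bodies was 46.4% and 48.4% in Neonatal, 43.4% and 41.3% in E14.5, 63.2% and 63.8% in Adult, and 59.6% and 45.2% in TAC. Neonatal replicates lay above both E14.5 and below both Adult values, while TAC replicate 2 fell among them. Against the other 6 lists together, the Neonatal mean of 47.4% ± 1.44 (SD, n = 2) did not differ beyond the spread from 52.8% ± 10.5 (SD, n = 6; exact permutation test, p = 0.536). Soft-masked bases made up 28.5% and 33.7% of Neonatal private peaks and 19.0 to 33.0% of those of the other lists (exact permutation test, p = 0.250). Of the 7 features none passed the exact permutation test, at adjusted p = 0.536 each, nor did any at an unadjusted p under 0.05. The smallest p this design allows is 0.0357, and 2 points with 2 lists each cannot go below 0.333.

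Set against all peaks of the same list, the loss of CpG in private peaks was larger in Neonatal than elsewhere. From all to private peaks, CpG per 100 bp changed by -0.349 and -0.302 in the Neonatal lists, and by -0.235 to -0.0966 in the other 6. This difference gave p = 0.0357, the smallest the exact permutation test can give, before any adjustment. Here too the test counts replicates of the same point as separate lists, so this p may be too small. The soft-masked share rose by 4.14 and 5.03 percentage points from all to private peaks in Neonatal, against changes from -2.08 to 3.56 in the other lists, with the same p of 0.0357 (exact permutation test). Both were alternatives to the main measure, and these p-values are not adjusted over the 7 features.

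**Figure D3:**
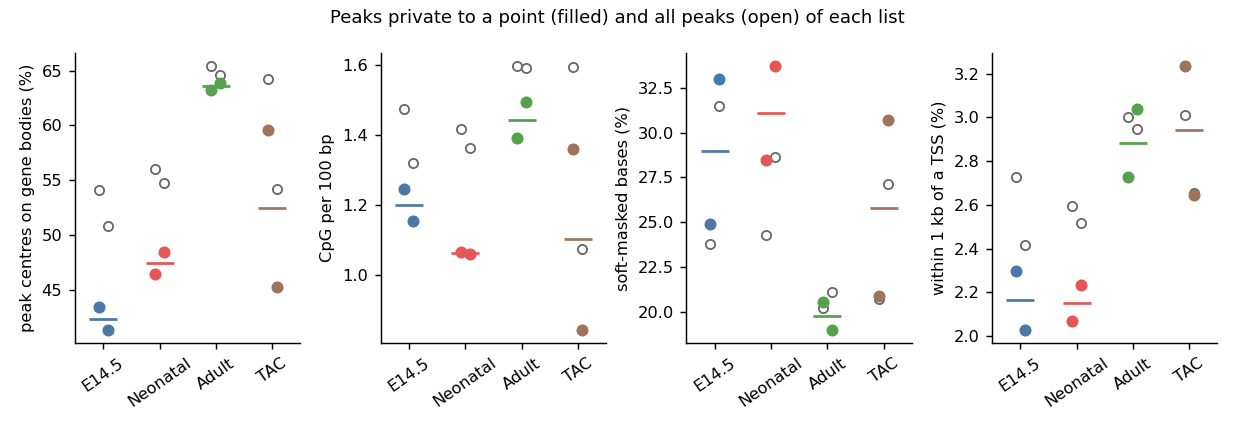
Filled points give private peaks and open points all peaks of each of the 8 lists, with 2 lists per point and a line at the mean of the private peaks: the percentage of centres on gene bodies, CpG per 100 bp, the percentage of soft-masked bases and the percentage within 1 kb of a TSS. Neonatal private peaks hold 1.07 and 1.06 CpG per 100 bp, below all lists but TAC replicate 2.

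Short motifs of cardiac transcription factors were counted on both strands of the central 300 bases. The GATA motif AGATAA was in 17.3% of neonatal-only and 14.4% of all neonatal common regions, and in 16.7% of E14.5-only, 12.5% of Adult-only and 14.9% of TAC-only regions. The TEAD motif GGAATG was in 19.5% and 17.99%, but E14.5-only regions held it more often, at 21.1%. The Nkx2-5 motif TNAAGTG was in 15.8% and 13.3%, beside 15.6% of Adult-only regions, and the E-box CAGCTG in 14.0% and 14.6%, beside 19.2% of Adult-only regions. The MEF2 motif CTAAAAATA was in 37 neonatal-only regions (0.837%), against 0.551% of all neonatal common regions and 0.363 to 0.449% of the regions of the other single points. Each motif was counted alone and some can share bases at their ends, base composition differs between the sets, and a match is not a bound site. Among the printed windows, the Ryr2 window held the GATA and Nkx2-5 motifs and the Camk2d window the TEAD motif and the E-box, whereas the Cdh13 window held none of the 5.

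Protein-coding gene bodies, from first to last transcribed base, held 2365 of the neonatal-only regions. They fell on 1864 of 20021 autosomal protein-coding genes (9.31%). Of these, 363 held 2 or more, 101 held 3 or more and 22 held 5 or more. Another neonatal-only region lay within 10 kb of 362 regions (8.19%), a share that depends on how many regions a set holds. Genes with 3 or more numbered between 168 and 315 without E14.5 replicate 1 or 2, Adult replicate 1 or 2 or TAC replicate 1, and with a single Neonatal list they numbered 1179 and 1352 and 22.1% and 24.6% of regions had another within 10 kb. Long genes held one more often: a region was found on 1.12% of genes under 10 kb and on 52.7% of genes of 300 kb or more, but per Mb of gene body the classes of length held between 1.68 and 3.0 regions.

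Of the 7 genes with 6 or more regions, 4 are on the calcium handling list (Ryr2, Slc8a1, Camk2d and Cacna1c) and the others are Cdh13, Fhl2 and Mbnl1. As a share of the neonatal common regions on each gene, the 7 ran from 5.36% (Cacna1c) to 33.3% (Fhl2). Cacna1c alone lay below the 6.12% over all genes. The 7 were picked for their number of neonatal-only regions, which raises this share, so the comparison is a description only. Ryr2, the calcium release channel of the sarcoplasmic reticulum (SR), held 9, the highest number of any gene, out of 62 neonatal common regions on its body of 554 kb. The Neonatal lists gave it 109 and 107 peaks, compared with 49 and 43 at E14.5, 68 and 85 in Adult and 80 and 57 in TAC. All 9 were intronic, from 41214 to 321701 bp downstream of the nearest TSS. Slc8a1, the sodium-calcium exchanger, held 7 of 43, with 79 and 81 Neonatal peaks against 38 to 56 in each other list. Camk2d, the calcium-dependent kinase of CMCs, held 7 of 41, with 57 and 56 Neonatal peaks and between 19 and 49 in the other lists. On these 3 genes the Neonatal lists had more peaks than any other list. The peaks beneath the neonatal-only regions, for which the genes named here were chosen, are part of these counts, and a gap between points on such genes is therefore no result of its own. The Neonatal lists were also long as a whole, with 134863 and 151247 autosomal peaks against 103752 to 137275 in the others, and the part of list length in these counts was not tested.

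Cacna1c, the pore of the L-type calcium channel, held 6 of 112 neonatal common regions, but its 153 and 136 Neonatal peaks compared with 155 and 159 Adult and 148 and 105 TAC peaks, so that the points overlapped. Cdh13, which encodes a cadherin anchored in the membrane without a transmembrane part, held 7 of 77 over 1041 kb, and Adult-only regions on it numbered 13. Mbnl1, a splicing regulator, held 6, the narrowest of them 6 bp wide. Among the genes with 5 were Rad51b, of DNA repair by recombination, Filip1, which binds filamin, and Pcdh7, a protocadherin.

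Fhl2, a LIM domain protein of the sarcomere, held 7 neonatal-only regions of 85 to 504 bp in 73.7 kb, 33.3% of its 21 neonatal common regions. Its peaks numbered 27 and 20 in Neonatal cells but 2 and 3 in Adult cells, 5 and 5 under TAC, and 17 and 13 at E14.5. Peaks were thus dense before and just after birth and sparse in both adult conditions, and the 7 regions lay between E14.5 peaks. The nearest peak of another point was an E14.5 peak at 6 of the 7, between 445 and 1865 bp away. Atp2a2, the SR calcium pump that refills the store after each beat, held 3 of 8 in 48.7 kb. Its peaks numbered 12 and 11 in Neonatal, 6 and 4 at E14.5, 4 and 4 in Adult and 2 and 3 in TAC. Of the Neonatal peaks 5 and 7 were private, the kind on which its choice rests, and without them the Neonatal lists had 7 and 4. The 3 Atp2a2 regions lay in introns at chr5:122477209-122477642, chr5:122480285-122480710 and chr5:122490352-122490802, from 11648 to 24799 bp downstream of the TSS.

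**Figure D4:**
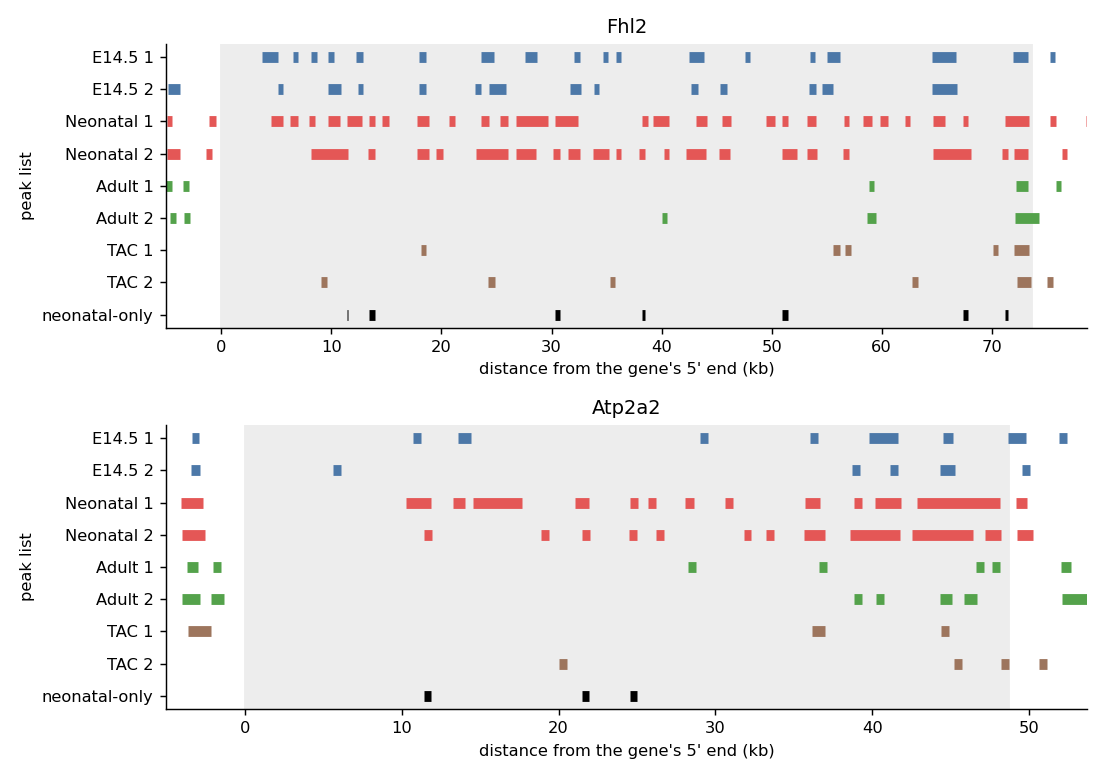
Coloured bars give the peaks of each of the 8 lists over Fhl2 and Atp2a2 by distance in kb from the 5' end of the gene, black bars the neonatal-only regions, and grey the gene body. Peaks on Fhl2 number 27 and 20 in the Neonatal lists and 2 to 5 in the Adult and TAC lists, and on Atp2a2 12 and 11 against 2 to 6 in all other lists.

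Among genes of at least 20 kb with 3 or more regions, Coq8a, of coenzyme Q synthesis, was densest with 4 regions in 30.8 kb (13.0 per 100 kb), followed by Fhl2 (9.5), Srl, the SR calcium-binding protein sarcalumenin (7.0), Dcp1b, of mRNA decapping (6.47), Atp2a2 (6.16) and Gpam, of glycerolipid synthesis in mitochondria (5.03). Srl had 13 and 16 peaks in Neonatal, 2 and 6 of them private, and 4 to 6 in each other list. One Dcp1b region also lies on Cacna1c, which overlaps it on the opposite strand.

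As a share of the neonatal common regions on a gene, among genes with 5 or more of these, Cbfa2t2, a transcriptional corepressor, led with 4 of 5, Ptk2, focal adhesion kinase, followed with 3 of 5, and Coq8a and Cdc42bpa, a kinase acting on myosin, had 57.1% each. Gpam, Picalm, of clathrin coats, and Nfyc, a subunit of NF-Y, had 3 of 6 each. Chd6, a chromatin remodeller, had 5 of 11 (45.5%), and Pappa, a protease of IGF-binding proteins, and Scaf8, which binds RNA polymerase II, had 3 of 7 each. Nfyc had 13 and 9 peaks in Neonatal, 1 and 2 at E14.5 and 3 to 7 in the other lists. Of its Neonatal peaks 7 and 5 were private, the kind on which its choice rests. The shares rest on 5 to 11 regions per gene.

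The 10 widest neonatal-only regions lay in introns of 9 genes and once between genes. The widest covered 2756 bp of an intron of Acsl1 (chr8:46492691-46495446), which encodes the synthetase that activates long-chain fatty acids, 3103 bp downstream of a TSS. It was made of peaks of 2756 and 3028 bp that stood 0.502% and 0.590% of the way down the Neonatal lists, and no peak of the other 6 lists came within 890 bp, although Acsl1 carried 9 to 17 peaks in each of them. The next widest covered 1908 bp in Slc25a3, the mitochondrial phosphate carrier, and another of the 10 covered 1584 bp in Ldb3, of the Z-disc. Ppargc1b, a coactivator of mitochondrial genes, held one of 1313 bp, and Klf9, a transcription factor that answers to glucocorticoids, one of 1233 bp.

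Klf9 had 1 and 1 peak at E14.5 but 5 to 8 in each later list. Another 4 of the 10 widest lay in Dst, a cytoskeletal linker, in Cemip (nearest TSS that of Mesd), in Syde2, and between genes with Twist2 nearest. The widest intergenic regions had Twist2 (1306 bp wide), Sox8 (1165 bp), Mreg (1060 bp), Ndrg1 (1018 bp) and Tpt1 (959 bp) as nearest genes. The Twist2 region (chr1:91920984-91922289) lay 120176 bp from that TSS.

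Gene lists put these genes in their pathways. Over all autosomal protein-coding genes there were 2.54 neonatal-only regions per Mb of gene body, and 9.31% of genes held one. Of 20 calcium handling genes 12 held one or more, 45 regions in all, or 11.3 per Mb. That was 4.45 times the density over all genes, a factor that was 2.96 without E14.5 replicate 2 and 1.97 and 1.84 without Neonatal replicate 1 and 2. E14.5-only, Adult-only and TAC-only regions on the same genes stood at 1.51, 6.53 and 3.51 per Mb, beside 1.65, 4.01 and 1.73 over all genes. Besides Ryr2, Slc8a1, Camk2d, Cacna1c and Atp2a2 they were Cacnb2 and Itpr2 with 3 regions each, Casq2, the calcium buffer of the SR, and Asph with 2 each, Cacna2d1, a subunit of the L-type channel, with 1, and Trdn and Jph2, of the junction between SR and T-tubule, with 1 each. Pln, which restrains the SR pump, held none. Among the neonatal common regions on calcium handling genes 11.9% were neonatal-only, against 6.12% over all genes, and among those of 250 to 501 bp 23.3% against 9.58%.

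Private peaks of each list, set as a density on calcium handling genes relative to that on all genes, were 1.84 and 1.97 in Neonatal, 0.759 and 0.732 at E14.5, 1.33 and 1.59 in Adult and 1.64 and 1.27 in TAC. With a single Neonatal list the rule returns its private peaks. The Neonatal values here are therefore the same numbers as the factors without a Neonatal replicate, for this and the other gene lists. Both Neonatal values were above the other 6. The same held for 3 more of the 18 lists, sarcomere and Z-disc (1.73 and 1.32 against 0.768 to 1.19), intercalated disc and costamere (1.35 and 1.51 against 0.781 to 1.30) and cell cycle (1.22 and 1.75 against 0.779 to 1.16). No list had both Neonatal values below the rest. These are descriptions without a test, since the lists were chosen with results known.

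Genes of energy metabolism held 7.52 to 13.1 regions per Mb. Neonatal common regions were dense on them too, at 84.6 to 94.8 per Mb against 41.4 over all genes. Of those, 12.9% were neonatal-only on fatty acid oxidation genes, 15.5% on mitochondrial and 8.43% on glycolysis genes, against 6.12% over all genes. Of 30 genes of fatty acid oxidation 9 held regions, at 12.3 per Mb: Hadha, of the trifunctional protein, and Lpl, lipoprotein lipase, with 2 each, and Acsl1, Hadh, Acadl, Cd36, Etfb, Cpt1a and Ucp3 with 1. Hadha carried 6 and 6 Neonatal peaks, 8 and 7 Adult, 6 and 4 TAC and 2 and 0 E14.5 peaks, so that its regions were absent elsewhere while the gene as a whole was not. Of 33 genes of mitochondrial respiration and the TCA cycle 7 held regions, at 13.1 per Mb, among them Cs, citrate synthase, with 2. Adult-only regions were as dense there, at 14.6 per Mb, and E14.5-only regions stood at 1.46. For glycolysis and glucose uptake the densities were 7.52 neonatal-only and 16.1 Adult-only, with 7 of 27 genes. Relative to all genes the 3 lists stood at 4.83, 5.16 and 2.96. Without Neonatal replicate 1 these factors were 2.12, 2.01 and 1.30, without Neonatal replicate 2 they were 1.53, 1.89 and 0.982, and without E14.5 replicate 2 the first 2 were 3.17 and 3.19. Private peaks on these 3 lists overlapped between Neonatal and the adult points.

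Contractile and junction genes held regions on structural proteins of the Z-disc and of cell contacts. Sarcomere and Z-disc genes held 14 regions on 9 of 36 genes (6.91 per Mb). Pdlim5 led with 3, of 18 to 474 bp, followed by Actn2, Nebl and Ttn with 2 each. But the 14 regions were 5.76% of the 243 neonatal common regions on these genes, near the 6.12% over all genes. In common regions of 250 to 501 bp the share was 15.3%, against 9.58%. The density was 2.72 times that of all genes, and 1.32 and 1.73 times without Neonatal replicate 1 and 2. Myh6 and Myh7, the cardiac myosin heavy chains, held none. Intercalated disc and costamere genes held 32 on 13 of 30 genes (5.11 per Mb), with 5 on Utrn, 4 each on Ctnna3 and Sorbs2 and 3 on Cdh2. These 32 were 8.12% of their neonatal common regions. Cardiac ion channel genes stood at 2.28 per Mb with 7 of 26 genes, near the value of all genes.

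Of 47 cardiac transcription factor genes 18 held regions (5.36 per Mb), among them Foxp1 with 4, Zfpm2 with 3, and Gata4, Mef2a, Prdm16, Ppara, Ppargc1a and Esrrg with 2 each, which made up 6.07% of their neonatal common regions. Chromatin genes (5.46 per Mb, 12 of 37 genes) and cell cycle genes (5.58 per Mb, 8 of 44, each with 1 region) were alike in density, but made up 6.09% and 11.3% of their neonatal common regions. The cell cycle genes include Mki67, Aurkb, Cenpe and Ccnd2. Relative to all genes, chromatin genes stood at 2.15 and cell cycle genes at 2.20, which became 1.28 and 1.75 without Neonatal replicate 1 and 1.10 and 1.22 without Neonatal replicate 2. Signalling lists stood at 2.84 to 3.71 per Mb: Hippo 3.71, Wnt 3.70, TGF-beta and BMP 3.42, and growth factor and hypertrophic signalling 2.84. As a share of their neonatal common regions they stood the other way, at 4.02%, 4.03%, 3.69% and 5.19%, each below the 6.12% over all genes. The Wnt list counts Tcf4, with 3 of its 14 regions, which names a bHLH factor and not the Wnt effector Tcf7l2. Values of the Wnt list without Tcf4 were not computed. Hippo genes stood at 1.46 times the density of all genes, and at 2.23 times without Adult replicate 1. Axon guidance and adhesion genes, which are long, stood at 1.99 per Mb although 17 of 37 held one. Of the 20 genes of DNA methylation and hydroxymethylation, Uhrf1 was the only one with a region, and none of Tet1, Tet2 and Tet3 held any. With 1 region its density relative to all genes, 0.572, moved to between 0.886 and 2.34 without E14.5 replicate 1, Adult replicate 2 or a Neonatal or TAC replicate.

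**Figure D5:**
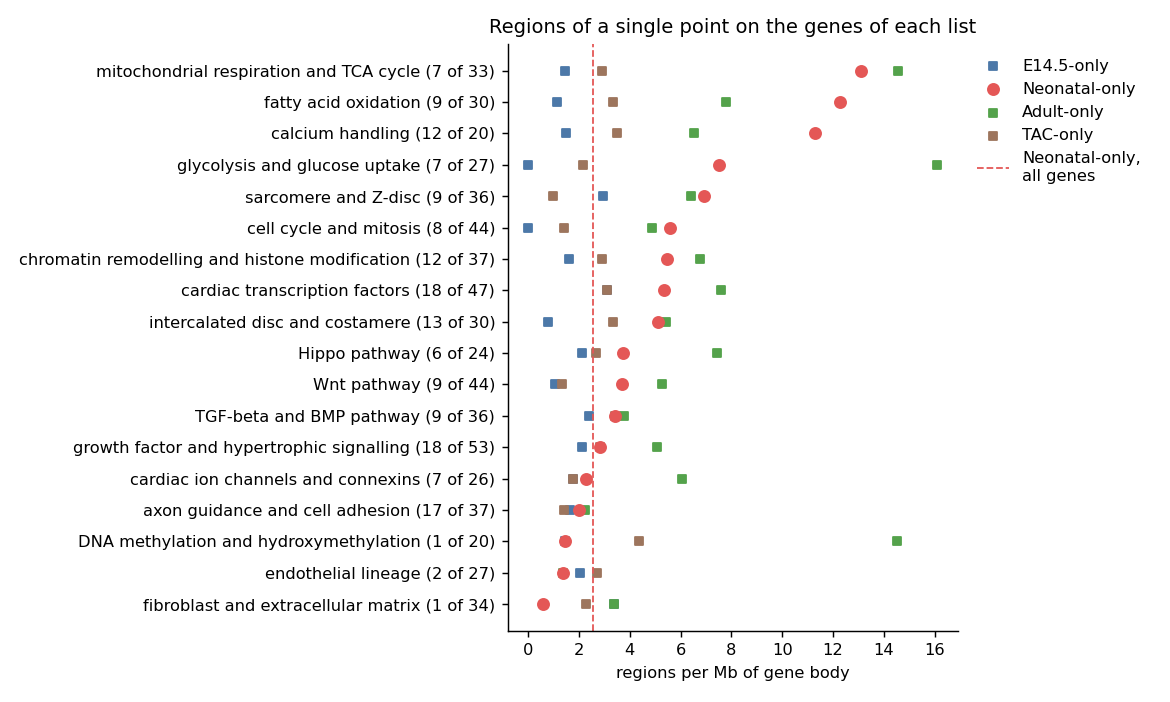
Points give regions per Mb of gene body on each of the 18 gene lists, with the genes that hold a neonatal-only region of all genes in brackets: circles neonatal-only, squares the other single points, and the dashed line 2.54, the neonatal-only value over all genes. Calcium handling, fatty acid oxidation and mitochondrial genes stand between 11.3 and 13.1, and fibroblast genes at 0.565.

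Few of the regions common to both Neonatal lists on genes of other cardiac cells were neonatal-only. Fibroblast and extracellular matrix genes held 1 region on 34 genes, on Col6a3, or 0.565 per Mb, and endothelial genes 2 on 27, on Erg and Notch1, or 1.36 per Mb. These were 1.10% of 91 and 2.35% of 85 neonatal common regions. Such low counts move easily: relative to all genes the fibroblast list stood at 0.222, but at 1.02 and 0.732 without Neonatal replicate 1 and 2, and at 0.345 to 0.741 without E14.5 replicate 2, an Adult replicate or TAC replicate 1. The endothelial list stood at 0.536, but at 1.88 and 1.77 without Neonatal replicate 1 and 2, and at 0.916 and 1.04 without E14.5 replicate 1 and 2. Its private peaks in single lists, relative to all genes, were thus 1.77 and 1.88 in Neonatal, 2.12 and 1.56 at E14.5, 0.785 and 0.629 in Adult and 0.527 and 1.30 in TAC, so that both Neonatal values were above the Adult and TAC values and overlapped those of E14.5.

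As a check of the cells, 6 CMC genes carried between 101 and 226 peaks per list, with 226 and 203 in Neonatal. The sum is carried by the long genes, and their 13 neonatal-only regions lay on Ryr2, Ttn and Actn2 alone. Myh6 carried 7 and 8 Neonatal and 8 and 8 E14.5 peaks against 1 to 3 in each adult list, Myh7 8 and 6 Neonatal and 8 and 7 E14.5 peaks against 1 to 5, and Tnnt2 4 and 3 Neonatal and 5 and 5 E14.5 peaks against 1 to 3. The 7 fibroblast marker genes carried 2 to 9 peaks per list, with Tcf21 at 0 in every list, and the 5 endothelial ones 18 to 39. Neither group held a neonatal-only region, but 2 of the fibroblast and 4 of the endothelial markers held any neonatal common region, so that little is to be read from this. The markers of each group differ in length, so that the groups are not compared with each other. In a mixed preparation a weaker peak cannot be told apart from 5-hmC in fewer cells.

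Most genes with a neonatal-only region carried 5-hmC at other points elsewhere on the body. Of the 1864 genes, 1478 (79.3%) held an E14.5 common region, 1481 (79.5%) an Adult one and 1209 (64.9%) a TAC one, 1693 (90.8%) held one of at least 1 of these points and 1047 (56.2%) of all 3. Over all autosomal protein-coding genes, which are shorter as a whole, 42.4% held an E14.5, 43.0% an Adult and 28.8% a TAC common region. Other neonatal common regions were on 1591 (85.4%). At the other end, 26 genes had no peak of the 6 other lists on the body, each with 1 neonatal-only region as its single neonatal common region, and their lengths ran from 981 bp (Olfr1396) to 42756 bp (Yme1l1, a protease of mitochondria). Adult-only regions lay on 681 of the 1864 genes, which is 36.5% of these and 25.8% of the 2644 genes with an Adult-only region. E14.5-only regions lay on 364 (19.5%) and TAC-only regions on 406 (21.8%). Over all genes these shares were 13.2% for Adult-only, 6.08% for E14.5-only and 6.75% for TAC-only regions. The sets share genes but, by the rule, no base pairs.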

How the data were processed

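The authors aligned hMeDIP reads to mm10 with BWA (0.7.4-r385), marked duplicates with Picard and called peaks per replicate against input DNA with HOMER findPeaks in histone mode. The deposited lists give positions (in BED form) and a score column that is 1 for every peak, which the authors left without tag counts, so reads and depth per sample were unknown and no interval on a peak could be given. Of 19 samples in the series, the 8 lists of E14.5, Neonatal, Adult and TAC were used, and the 11 sh-control and input samples were not analysed here. How duplicate removal and mapping filters changed peak calls over repeats was not tested.

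Neonatal-only regions were computed in Python (numpy 2.4.6, scipy 1.17.1, pandas) and the code was tested on simulated data, where 1740 of 1740 planted regions were found. The centre of a region gave its class, by the order TSS, TTS, coding exon, untranslated exon, intron and intergenic, from 45756 curated RefSeq transcripts of GRCm38. Motifs, CpG and soft-masked bases were read from the same assembly. Features of private peaks were compared by an exact two-sided permutation test of 2 against 6 lists with Benjamini-Hochberg adjustment. Regions and gene lists were described by counts only.

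Members and gene lists were chosen with earlier results of these data known. Genes named are the 10 with most regions, the 10 densest of at least 20 kb with 3 or more regions, the 10 with the largest share of 5 or more neonatal common regions, those nearest the 10 widest and 5 widest intergenic regions, and the 4 leading genes of each list. Other list members, genes at 0 and the shortest and longest gene without other peaks were named after their values were seen. Not every gene that these rules pick is reported here. Alternatives were other overlap, width and distance rules, other annotations, lists left out, the replicate number as a block and, chosen after seeing the data, the first 50% of each list and common regions of 250 to 501 bp.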

Additional observations from a re-analysis of the deposited data

How the results depend on the processing

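The number of neonatal-only regions ranged from 4751 to 27575 with a list left out, and their coverage from 2.04 to 14.7 Mb. The highest numbers came without Neonatal replicate 2 (27575) and without Neonatal replicate 1 (23206), where a single list stands for the point, and without E14.5 replicate 2 (8943) or E14.5 replicate 1 (6719) more regions passed because fewer lists could remove one. With the same lists left out, the share on gene bodies ranged from 46.4 to 57.8%, genes with 3 or more regions from 114 to 1352, the share with another within 10 kb from 8.74 to 24.6%, the median distance to a TSS from 33.9 to 51.7 kb, and genes also marked at another point from 82.3 to 96.0%. Barring a peak of another point within 1 kb left 2094 regions over 0.909 Mb, 44.8% on gene bodies, 13 genes with 3 or more, 3.34% within 10 kb of another, 51.2 kb from a TSS, and 86.6% of genes marked at another point. Dropping a region only at 50% cover gave 57.8% on gene bodies, 202 genes, 10.8% and 34.1 kb. A 50% overlap of both Neonatal peaks gave 52.0%, 47 genes, 5.15% and 42.2 kb, and the union of the Neonatal peaks 51.4%, 56 genes, 5.72% and 41.7 kb. Without both TAC lists the values were 57.8%, 196 genes, 11.1%, 33.9 kb and 89.0%. GENCODE M21 put 57.7% on gene bodies, and TSSs of all genes lay 29.9 kb away. In the first 50% of each list 2309 regions were found with 65.6% on gene bodies, and in the first 50% of the Neonatal lists against the whole other lists 679 with 67.6%. With the X chromosome there were 4540.

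Relative to all genes, the density on calcium handling genes was 4.45 and ranged from 1.84 to 4.73 with a list left out, on fatty acid oxidation genes 4.83 (1.53 to 4.85) and on mitochondrial genes 5.16 (1.89 to 5.14), all above 1. Lists that crossed 1 were cardiac ion channels (0.895, from 0.825 to 1.21, and 1.59 with the 1 kb rule), glycolysis (2.96, from 0.982 to 2.81), growth factor signalling (1.12, from 0.987 to 1.27, and 0.774 with the 1 kb rule), fibroblast (0.222, from 0.205 to 1.02), endothelial (0.536, from 0.494 to 1.88) and DNA methylation genes (0.572, from 0.436 to 2.34). Their cause was not tested.

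For private peaks, the CpG difference of Neonatal and other lists was -0.184 per 100 bp and became -0.132 (exact permutation p = 0.0357) relative to all peaks of the list, and the soft-masked difference of 6.23 points became 3.82 (exact permutation p = 0.0357). The width difference of -8.35 bp ranged from -16.5 to 0.363 bp with a list left out. With the replicate number as a block the CpG difference stayed -0.184 (exact permutation p = 0.375, smallest possible 0.0625), and no feature passed. The deviations of same-numbered lists correlated between -0.597 and 0.741 over the 7 features in the 6 pairs of points. The 7 features are few and related to one another, so these values cannot decide whether the numbers pair the lists. List depth is unknown, and 2 lists per point limit each test. The permutation tests also treat replicates of the same point as exchangeable with lists of other points, so their p-values may be too small.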
